A study of Mus musculus with 56 samples.

Results

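Genes of the p53 pathway and of apoptosis were followed in cultured keratinocytes of newborn mice, the epithelial cells that build the epidermis, exposed to transforming growth factor β1 (TGF-β1). The members were chosen by symbol on the array: BCL2 family proteins, caspases, TNF receptor family members and their adaptors, inhibitors of apoptosis, p53 and its regulators or targets, GADD45 proteins, sestrins, death-associated kinases and programmed cell death genes. This gave 46 genes, measured by 48 probes, of 6795 named genes in all. The rule reads symbols and no measured value, but it was set with earlier results of these data known. Bcl2 and Casp9 had 2 probes each, which were averaged. Another 10 probes that match the symbols are shared by several genes and were not assigned to one, and none of them passed the test below in any comparison. Trp53 itself, Bax, Bcl2l11, Fas, Apaf1 and Cflar are not analysed here.

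Each array compared treated with untreated RNA of 1 kind of cell. Its value is the log ratio of these, so a value shows a change and no level. The base of the logarithm is not stated and was taken as log2, on which the fold changes below rest. The cells were cultured from newborn Balb/c mice and were either primary keratinocytes or primary keratinocytes transduced in culture with a replication-defective retrovirus carrying Ha-ras, called ras keratinocytes here. Both received TGF-β1 at 1 ng/ml for 1, 6, 24 or 48 h. Primary cells had 6, 7, 6 and 3 arrays at these times and ras cells 6, 7, 6 and 4, after 7 arrays with the dyes reversed were left out because the labels do not say whether their sign had been turned. Cells of Smad3 wild type (Smad3+/+) and Smad3 knockout (Smad3-/-) mice, of a strain labelled C57B1/SVJ, were treated for 48 h as primary and as ras keratinocytes, with 1 usable array for each genotype and cell type. Nothing says that arrays of a group came from separate cultures, so p-values measure the spread between arrays, which may be technical. That ratios stand for treated over untreated is likely, judged by the order of the channels. Ratios cannot show whether keratinocyte markers are present, so the cell type rests on the label, and fewer cells of a type and less RNA per cell cannot be told apart.

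The p53 protein is a transcription factor that stress signals stabilise. It induces cell cycle inhibitors and DNA repair genes, pro-apoptotic BCL2 proteins and its own antagonist MDM2. In the mitochondrial pathway of apoptosis, BH3-only proteins counter the anti-apoptotic BCL2 proteins and free BAX and BAK to open the outer mitochondrial membrane, which activates caspase-9. In the receptor pathway, TNF family receptors recruit FADD or TRADD and activate caspase-8. TGF-β, which signals through Smad3, arrests epithelial cells and induces apoptosis in some of them.

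Few of these genes passed the test below in a response to TGF-β1, and over all responses their share (15.2%) was not above that of all features (20.7%). Not passing does not show that a gene stayed unchanged. The p53-linked genes Mdm2, Ccng1, Trp53inp1 and Gadd45a and the decoy receptor genes Tnfrsf23 and Tnfrsf11b rose in at least 1 response, and Bak1 fell in 1 through a single array. Called means an adjusted p (Benjamini-Hochberg, over all 8905 features, limma) under 0.05. At 1 h 0 members were called in primary cells and 0 in ras cells (2 and 2 had an unadjusted p under 0.05), where 0.0112% and 0.0786% of all features were called. At 6 h the counts were 0 in primary cells (6 at an unadjusted p under 0.05; background 0.0112%) and 1 in ras cells, a rise (background 1.73%, 1.36% higher). At 24 h 1 member rose in primary cells against a background of 1.36% called (0.348% higher), and 2 rose in ras cells against 10.5% (3.84% higher). At 48 h 4 members rose and 1 fell in primary cells, 10.9% of the members against 8.6% of all features (5.11% higher, 3.49% lower), and 3 rose in ras cells, 6.52% against 3.5% (1.9% higher). In all, 7 of 46 members (15.2%) were called in at least 1 response, against 20.7% of all features, and 39 were called in none. The median log2 ratio of the members lay between -0.02 and 0.14 over the 8 responses, beside medians of all features between -0.05 and 0.01.

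**Figure D1:**
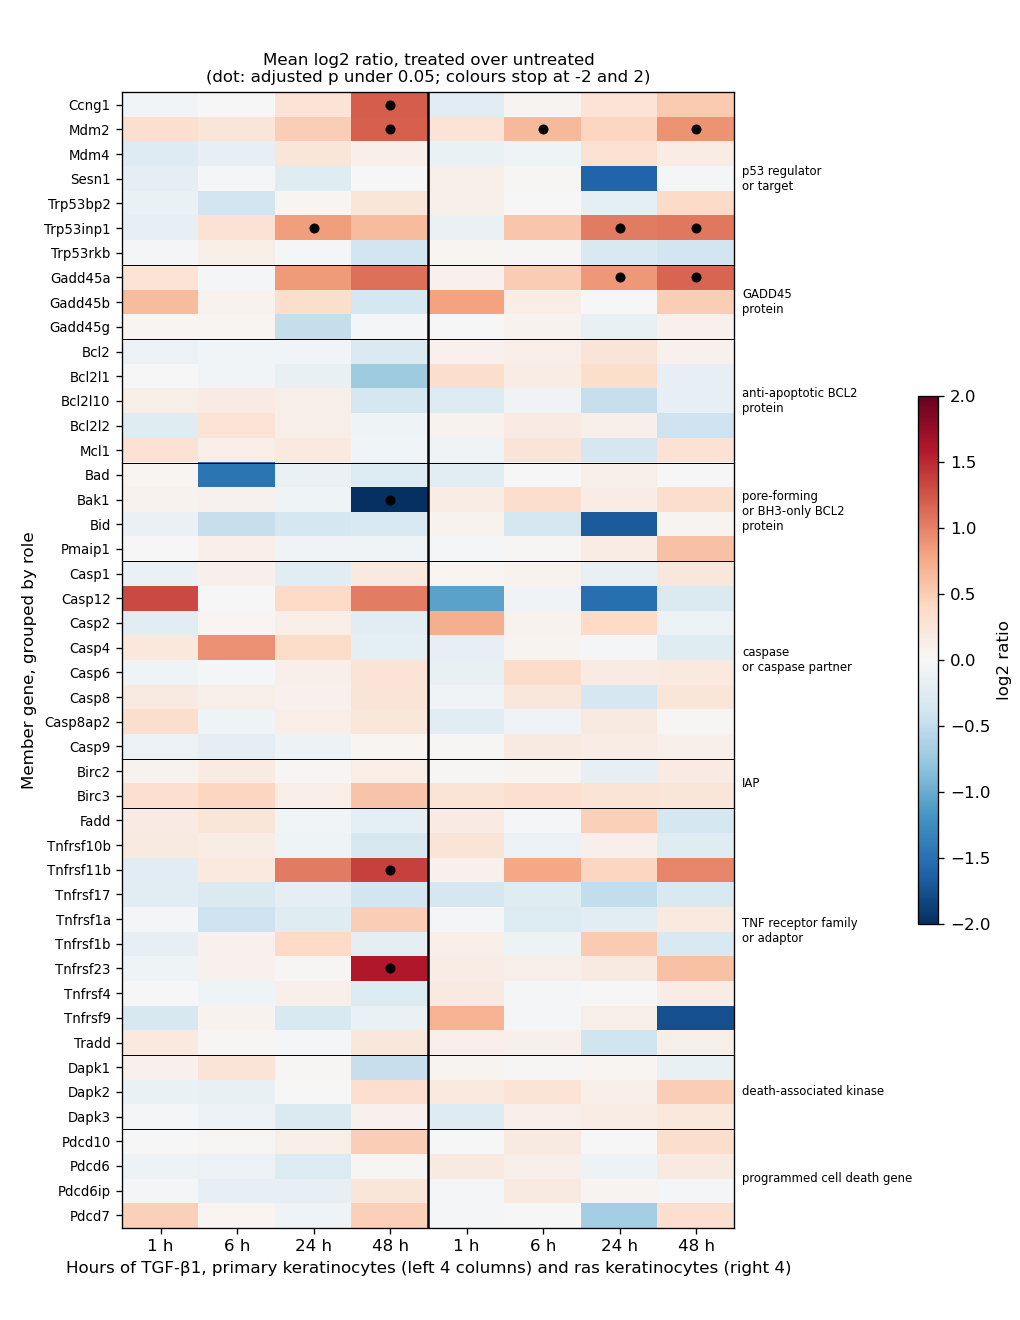
Mean log2 ratio (treated over untreated) of the 46 members, in rows grouped by role, at 1, 6, 24 and 48 h in primary cells (left 4 columns) and ras cells (right 4). Black dots mark adjusted p under 0.05; they lie on Ccng1, Mdm2, Trp53inp1, Gadd45a, Tnfrsf11b and Tnfrsf23, which rose, and on Bak1, whose dark blue cell rests on 1 array.

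Among the 7 regulators or targets of p53, 3 were called in at least 1 response, each time as a rise, where 20.7% of all features were called in at least 1. Mdm2, which encodes the ubiquitin ligase that degrades p53 and is itself induced by p53, stood at 1.32, 1.40 and 0.88 on the 3 arrays of primary cells at 48 h. In ras cells at 48 h the 4 arrays read 0.85, 1.12, 1.15 and 0.50. All 7 arrays were above 0, and the mean log2 ratios were 1.20 (SE 0.23, adjusted p = 0.000484) and 0.91 (SE 0.20, adjusted p = 0.00805), a 2.29-fold and a 1.87-fold rise. The ras call at 48 h was lost without replicate 1 (0.92, adjusted p = 0.0519) or replicate 3 (0.82, adjusted p = 0.0678). At 6 h in ras cells Mdm2 ranged from 0.16 to 0.99 with a median of 0.73, above 0 on all 7 arrays. Its mean of 0.65 (SE 0.15, adjusted p = 0.0146) lost its call without replicate 7 (0.62, adjusted p = 0.0525) or replicate 8 (0.59, adjusted p = 0.0776). The mean log2 ratio of Mdm2 was above 0 in all 8 responses.

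Ccng1, which encodes cyclin G1, a p53 target that helps to activate MDM2, stood at 1.13, 1.66 and 0.85 in primary cells at 48 h. These 3 arrays lay above every earlier array of primary cells, the highest of which was 0.76 at 6 h. The mean was 1.21 (SE 0.20, adjusted p = 7.47e-05), and the call held without any 1 array of the group. The rise rests on 1 probe: another, which the annotation assigns to Ccng1 and Sat2 together, stood at 0.25 (adjusted p = 0.551) in primary cells at 48 h, and its difference from 6 h was 0.26 (adjusted p = 0.668). In ras cells at 48 h Ccng1 read 0.72, -0.12, 0.88 and 0.63, with a mean of 0.53 (SE 0.18, adjusted p = 0.08) that did not pass the test; 3 of 4 arrays were high and replicate 2 was below 0.

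Trp53inp1 encodes a stress-induced nuclear protein that promotes p53-dependent cell cycle arrest and apoptosis. In ras cells at 24 h it ranged from 0.56 to 1.57 with a median of 1.00, above 0 on all 6 arrays, and at 48 h it read 1.20, 1.51, 0.98 and 0.55. The means were 1.04 (SE 0.18, adjusted p = 0.000358) and 1.06 (SE 0.22, adjusted p = 0.00401), and both calls held without any 1 array of the group. In primary cells at 24 h it ranged from 0.23 to 1.80 with a median of 0.45, and the mean of 0.83 (SE 0.18, adjusted p = 0.00552) was called. That call was lost without replicate 5 (0.65, adjusted p = 0.0618) or replicate 6 (0.64, adjusted p = 0.109). At 48 h in primary cells the arrays read 0.86, 0.75 and 0.29, and the mean of 0.63 (SE 0.25, adjusted p = 0.112) did not pass the test.

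The other members of this group did not pass the test in any response. Mdm4, an MDM2 relative that restrains p53, stayed between -0.26 and 0.30. Trp53bp2 encodes ASPP2, which directs p53 to apoptotic genes, and lay between -0.38 and 0.39. Trp53rkb, a kinase gene named for p53, lay between -0.39 and 0.11. Sesn1, a p53-induced inhibitor of mTORC1 signalling, had a mean of -1.61 (SE 0.61, adjusted p = 0.0843) in ras cells at 24 h, where its lowest array read -9.86 and the median was -0.34.

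**Figure D2:**
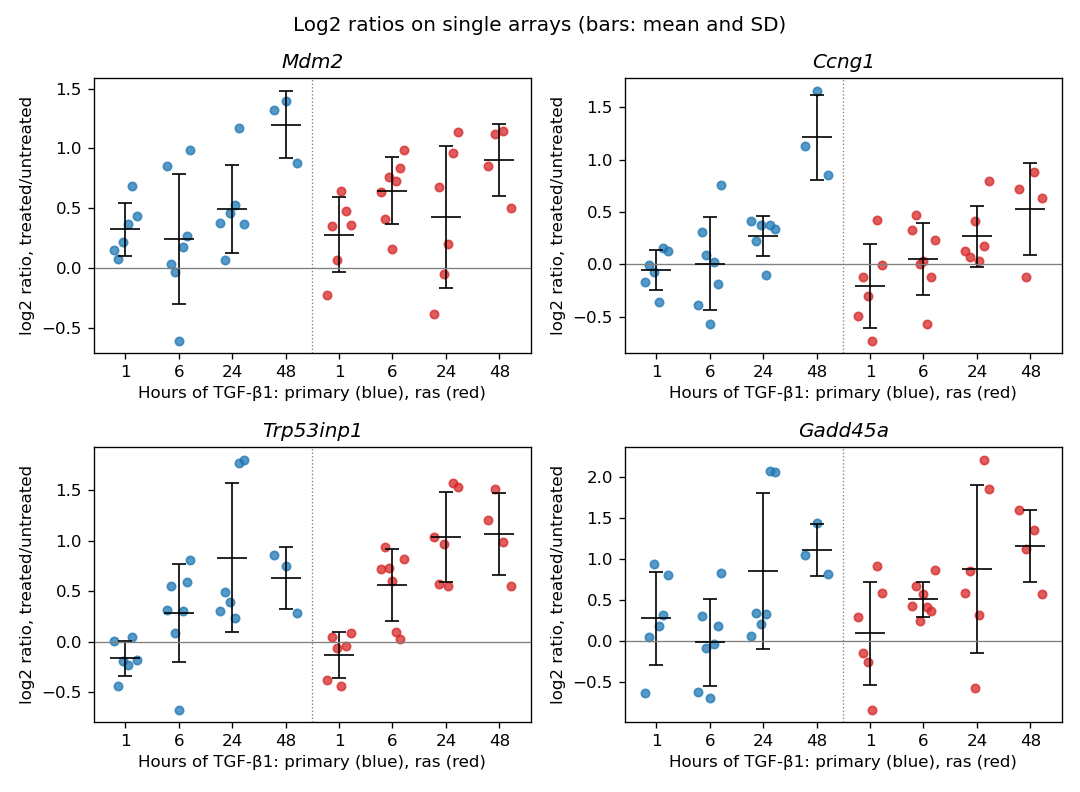
Log2 ratio (treated over untreated) of Mdm2, Ccng1, Trp53inp1 and Gadd45a on every Balb/c array with the treated RNA in Cy5, by hours of TGF-β1, in primary (blue) and ras (red) cells; bars give the mean and SD. At 24 h Trp53inp1 and Gadd45a split in primary cells, 2 arrays near 1.78 and 2.07 and the other 4 under 0.50.

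Gadd45a, one of 3 GADD45 genes, encodes a p53-induced stress sensor that arrests cells in G2 and activates p38 and JNK signalling. In ras cells at 48 h it read 1.59, 1.12, 1.35 and 0.57, and in primary cells 1.05, 1.44 and 0.82, above 0 on all 7 arrays. The ras mean of 1.16 (SE 0.32, adjusted p = 0.0355) was called and the primary mean of 1.10 (SE 0.37, adjusted p = 0.0554) was not. Without replicate 1, 2 or 3 the ras value at 48 h was 1.01, 1.17 or 1.09 and no longer called (adjusted p = 0.225, 0.0717 and 0.151), nor was it with the blocks of experiment numbers described below as a random term (0.94, adjusted p = 0.0849). At 24 h in ras cells it ranged from -0.58 to 2.20 with a median of 0.72, and the mean of 0.87 (SE 0.26, adjusted p = 0.029) was called. That call was lost without replicate 1 (0.93, adjusted p = 0.0671), replicate 6 (0.61, adjusted p = 0.173) or replicate 7 (0.68, adjusted p = 0.13). Gadd45a in primary cells at 24 h ranged from 0.06 to 2.07 with a median of 0.34, and its mean of 0.85 (SE 0.26, adjusted p = 0.106) did not pass.

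Gadd45b, a GADD45 gene that TGF-β is known to induce through Smad proteins, was highest at the earliest time. At 1 h in ras cells it ranged from 0.49 to 1.00 with a median of 0.89, above 0 on all 6 arrays, and its mean of 0.80 (SE 0.18) had an adjusted p of 0.0634. In primary cells at 1 h it ranged from -0.02 to 1.49 with a median of 0.58, and the mean was 0.63 (SE 0.18, adjusted p = 0.735). At 48 h in primary cells its arrays disagreed in sign (0.53, -0.55 and -1.03). Gadd45g, the remaining GADD45 gene, lay between -0.15 and 0.09 except in primary cells at 24 h, where it ranged from -0.88 to 0.07 with a mean of -0.47 (SE 0.14, adjusted p = 0.0761).

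Some values of these genes differed between arrays of low and high experiment number, at 24 h and at other times. The labels give each array an experiment number of the mAdb array database, and the arrays at 1, 6 and 24 h fall into a lower and a higher range of numbers with a gap between them. What the numbers stand for is not stated. In primary cells at 24 h Trp53inp1 averaged 1.78 on the 2 arrays of high number, called within that range (adjusted p = 0.00201), and 0.36 on the 4 arrays of low number (adjusted p = 0.587). For ras cells at 24 h the gene averaged 1.55 (n = 2, adjusted p = 0.00769) and 0.78 (n = 4, adjusted p = 0.0177), called in both. Gadd45a averaged 2.03 on the 2 arrays of high number in ras cells at 24 h (adjusted p = 0.00382) and 0.29 on the 4 of low number (adjusted p = 0.44). The primary cells at 24 h averaged 2.07 and 0.24, and the ranges did not overlap (2.06 to 2.07 and 0.06 to 0.34). Mdm2 in ras cells at 6 h averaged 0.91 (n = 2, adjusted p = 0.38) and 0.54 (n = 5, adjusted p = 0.141), not called in either range. Ranges that did not overlap also occurred elsewhere. Gadd45a in ras cells at 1 h averaged 0.75 on the arrays of high number and -0.24 on those of low number. Tnfrsf11b at 6 h averaged 0.89 and -0.08 (primary) or 1.47 and 0.50 (ras), and Mdm2 in ras cells at 24 h 1.05 and 0.12. High numbers also lay apart and higher for Mdm2 (primary 1 h, ras 6 h), Ccng1 (1 h, both cell types), Trp53inp1 (primary 6 h) and Tnfrsf1a (ras 24 h). For Bak1 (primary 24 h, ras 1 h) they lay apart and lower. With 2 arrays of high number such a split can arise by chance. How many of all features split in this way was not counted. Not one 48 h array has a low number, and some 48 h and all Smad3 arrays lie beyond a further gap above the higher range; they are counted with it here. Fitted on the arrays of high number alone, Ccng1 (adjusted p = 0.00639), Mdm2 (adjusted p = 0.00218) and Tnfrsf23 (adjusted p = 0.00391) stayed called in primary cells at 48 h, as did Gadd45a, Mdm2 and Trp53inp1 in ras cells (adjusted p = 0.0101, 0.0146 and 0.0101). For 48 h that fit holds the same arrays and means as the main one, and only the estimate of spread differs. It therefore cannot show what part the number has in the 48 h calls. The part of the number in the results was not tested.

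The promoters of the 7 called members were read where RefSeq windows of build GRCm38.p6 were at hand, from 250 bases before to 50 after the start of the gene. Of the 46 members 40 matched; Bcl2l10, Pmaip1, Tnfrsf10b, Tnfrsf11b, Tradd and Trp53inp1 did not. Windows were searched on both strands for the p53 half-site consensus, for the Smad element CAGACA and for the palindrome GTCTAGAC. The half-site consensus occurred in 6 of the 50 member windows (12%) and in 8.36% of all 32841 windows. Of the 5 called members with a window, Ccng1, Gadd45a and Mdm2 held 1 match each and Bak1 and Tnfrsf23 none. The other matches lay in windows of Birc2, Pdcd7 and Sesn1, which were called in no response. The windows of those 3 p53-induced genes that rose are shown because they carry a match, each on the minus strand of its chromosome and written 5′ to 3′ along the gene, with the match in capitals. They lie at chr11:40755237-40755536 (Ccng1), chr6:67037358-67037657 (Gadd45a) and chr10:117710709-117711008 (Mdm2).
Ccng1: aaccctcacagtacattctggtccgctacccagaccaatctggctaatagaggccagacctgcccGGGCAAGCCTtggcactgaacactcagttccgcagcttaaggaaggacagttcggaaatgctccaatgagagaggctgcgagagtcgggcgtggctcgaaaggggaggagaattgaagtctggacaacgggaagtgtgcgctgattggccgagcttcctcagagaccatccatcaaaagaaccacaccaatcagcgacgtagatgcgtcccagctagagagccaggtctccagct
Gadd45a: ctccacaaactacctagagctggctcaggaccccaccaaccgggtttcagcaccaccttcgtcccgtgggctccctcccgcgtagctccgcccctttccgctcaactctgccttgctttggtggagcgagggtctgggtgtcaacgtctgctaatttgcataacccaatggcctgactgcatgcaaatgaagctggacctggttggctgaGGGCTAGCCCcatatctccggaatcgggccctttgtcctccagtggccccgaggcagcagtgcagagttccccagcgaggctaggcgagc
Mdm2: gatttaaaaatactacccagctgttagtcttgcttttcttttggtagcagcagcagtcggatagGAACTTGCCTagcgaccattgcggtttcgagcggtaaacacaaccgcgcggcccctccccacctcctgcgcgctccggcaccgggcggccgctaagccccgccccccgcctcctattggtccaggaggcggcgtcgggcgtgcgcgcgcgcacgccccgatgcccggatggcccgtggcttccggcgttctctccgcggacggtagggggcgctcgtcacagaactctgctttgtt
The match begins at position -185 from the start in Ccng1, -40 in Gadd45a and -186 in Mdm2. The known p53-responsive promoter of Mdm2 lies in its first intron, outside this window. CAGACA occurred in 5 member windows, among the called members in that of Bak1 alone, and in 21.0% of all windows. GTCTAGAC occurred in none of the member windows and in 0.213% of all. A match describes letters in a window and was not tested as a binding site.

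Of the 10 TNF receptor family members and adaptors, 2 rose, both in primary cells at 48 h, where 5.11% of all features rose; over all responses 20.7% of all features were called at least once. Tnfrsf23 encodes a decoy receptor for the death ligand TRAIL that lacks a death domain. It read 1.85, 1.76 and 1.21 in primary cells at 48 h, above every array of the earlier times, the highest of which was 0.59 at 24 h. Its mean of 1.60 (SE 0.23, adjusted p = 3.98e-06), a 3.04-fold rise, was the highest mean log2 ratio among the members' responses, and the call held without any 1 array of the group. In ras cells at 48 h it read -0.17, 0.45, 1.39 and 0.70, with a mean of 0.59 (SE 0.20, adjusted p = 0.077).

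Tnfrsf11b encodes osteoprotegerin, a secreted decoy receptor for RANKL that also binds TRAIL. In primary cells at 48 h it read 1.27, 2.24 and 0.59, with a mean of 1.36 (SE 0.40, adjusted p = 0.0254). The call was lost without replicate 1 (1.41, adjusted p = 0.101) or replicate 2 (0.93, adjusted p = 0.407), and within the arrays of high experiment number (adjusted p = 0.112). At 24 h in primary cells all 6 arrays were above 0, from 0.22 to 3.23 with a median of 0.58, and the mean of 1.03 (SE 0.28, adjusted p = 0.0527) did not pass. In ras cells all 7 arrays were above 0 at 6 h (0.09 to 1.54, mean 0.78, SE 0.26, adjusted p = 0.144), and at 48 h 2 arrays were high and 2 low (2.03, 0.17, 1.99 and -0.29).

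Tnfrsf1a encodes TNFR1, the main death domain receptor for TNF. Its ratio was below 0 on all 7 arrays of primary cells at 6 h (-1.06 to -0.02, mean -0.42, SE 0.13, adjusted p = 0.288) and above 0 on all 3 at 48 h (0.56, 0.57 and 0.34, mean 0.49, SE 0.20, adjusted p = 0.134); neither passed the test. Tnfrsf1b, which encodes TNFR2, had its largest mean in ras cells at 24 h (0.52, SE 0.24, adjusted p = 0.176). Tnfrsf10b, the mouse death receptor for TRAIL, stayed between -0.32 and 0.25. Tnfrsf9 (4-1BB), a costimulatory receptor of T cells, had a mean of -1.76 (SE 0.56, adjusted p = 0.0664) in ras cells at 48 h, where replicate 1 read -6.37 and the others -0.44, -0.21 and 0.00. Tnfrsf17, the receptor BCMA of B cells, was below 0 in all 8 responses (-0.50 to -0.18), and Tnfrsf4 (OX40), another T cell receptor, lay between -0.27 and 0.17. The adaptors Fadd and Tradd stayed between -0.35 and 0.47 and between -0.39 and 0.23. None of these passed the test in any response.

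**Figure D3:**
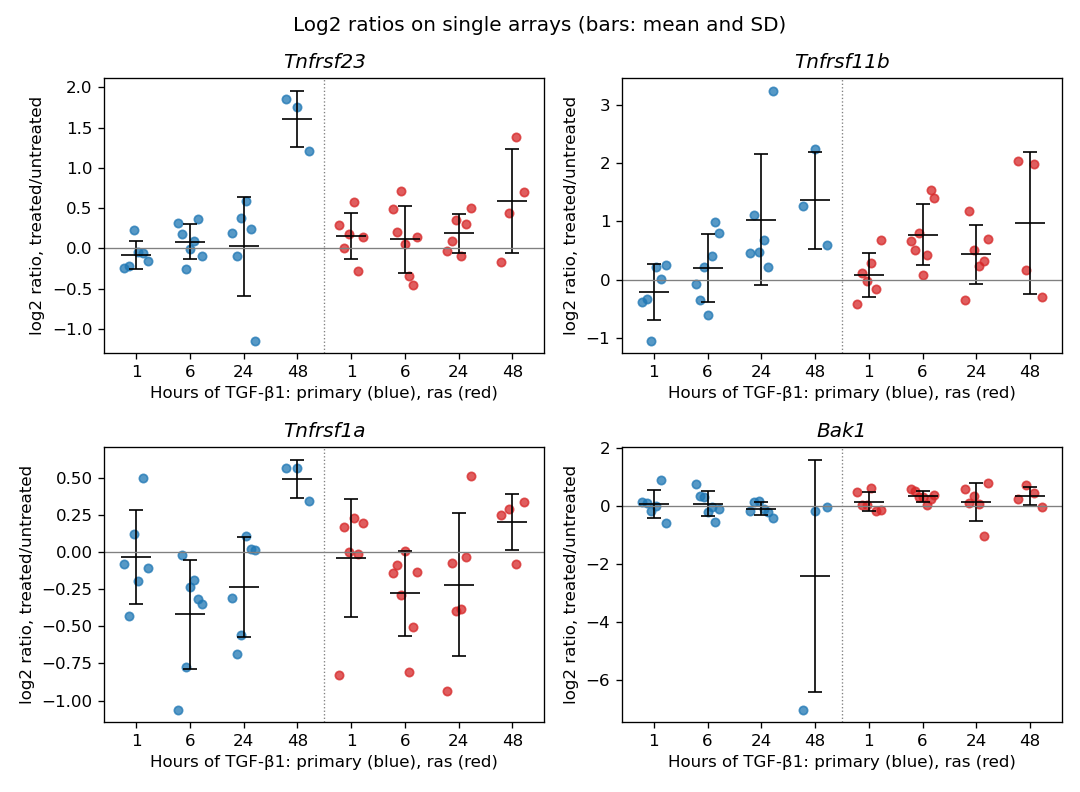
Log2 ratio (treated over untreated) of Tnfrsf23, Tnfrsf11b, Tnfrsf1a and Bak1 on every Balb/c array with the treated RNA in Cy5, by hours of TGF-β1, in primary (blue) and ras (red) cells; bars give the mean and SD. The 3 primary arrays of Tnfrsf23 at 48 h lie between 1.21 and 1.85, and 1 primary array of Bak1 at 48 h lies at -7.04.

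Among the 4 pore-forming or BH3-only proteins, Bak1 was the only member called lower in any response. It encodes BAK, which forms pores in the outer mitochondrial membrane, and read -7.04, -0.16 and -0.02 in primary cells at 48 h. The mean of -2.41 (SE 0.56, adjusted p = 0.00415) rests on replicate 1: without it the value was -0.09 (adjusted p = 0.972), and within the arrays of high experiment number the call was lost too (adjusted p = 0.116). In ras cells Bak1 was above 0 on all 7 arrays at 6 h (0.03 to 0.60, mean 0.34, SE 0.37, adjusted p = 0.832). Bid, which links caspase-8 to mitochondria, had a mean of -1.69 (SE 0.65, adjusted p = 0.0902) in ras cells at 24 h with a median of -0.04 and 1 array at -10.6. Bad, a BH3-only protein held inactive by survival kinases, likewise had a mean of -1.46 (SE 0.51, adjusted p = 0.295) in primary cells at 6 h with a median of -0.22 and 1 array at -9.08. Pmaip1, the p53 target NOXA, read 0.18, 1.23, 0.17 and 0.77 in ras cells at 48 h (mean 0.59, SE 0.20, adjusted p = 0.0897) and -0.23, 0.05 and -0.05 in primary cells.

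None of the 5 anti-apoptotic BCL2 genes was called in a response. Bcl2, the founding member, lay between -0.28 and 0.26. Its 2 probes differed in primary cells at 48 h, with means of -0.74 and 0.17. Bcl2l1, which encodes BCL-XL, had its lowest mean in primary cells at 48 h (-0.71, SE 0.36, adjusted p = 0.249), from arrays at -1.55, -0.68 and 0.11, and read -0.08, 1.75, -2.02 and -0.28 in ras cells. The spread between these arrays was wider than any mean of the gene. Mcl1, a short-lived anti-apoptotic protein, lay between -0.34 and 0.29, Bcl2l2 between -0.41 and 0.27 and Bcl2l10 between -0.46 and 0.16.

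None of the 8 caspases or caspase partners was called. Casp8, the initiator of the receptor pathway, lay between -0.34 and 0.26, and Casp9, the initiator of the mitochondrial pathway, between -0.18 and 0.17. The Casp9 values average 2 probes of opposite sign at 48 h, at 0.45 and -0.37 in primary cells. In ras cells at 48 h the same probes stood at 0.30 and -0.11. Casp6, an effector caspase, was above 0 on all 7 arrays of ras cells at 6 h (0.11 to 0.61), and its mean of 0.37 (SE 0.19) had an adjusted p of 0.455. Casp12, a caspase of the endoplasmic reticulum, had the widest responses of the group, from -1.51 in ras cells at 24 h to 1.32 in primary cells at 1 h. Both rest on 1 array each, at -6.81 and 7.22, beside medians of -0.52 and 0.27. In primary cells at 48 h Casp12 was above 0 on all 3 arrays (0.86 to 1.22, mean 1.03) and was not called. The wide arrays of its other groups enter the spread used for that test. Casp4, an inflammatory caspase that senses lipopolysaccharide, had a mean of 0.91 (SE 0.41, adjusted p = 0.446) in primary cells at 6 h with 1 array at 5.53 and a median of 0.29. The other caspase genes, Casp1 and Casp2, and Casp8ap2, a caspase-8 partner also known as FLASH, lay between -0.23 and 0.73.

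Several of these means rest on single wide values. The groups share 1 estimate of spread for each gene, so such a value also widens the SE in the gene's other groups. Of the 16 member values beyond 2.3 in size, 3 came from ras cells at 24 h replicate 1 (Bid, Sesn1 and Casp12) and 2 from primary cells at 6 h replicate 1 (Bad and Casp4), which are also the 2 arrays with the widest ratios over all probes. Brightness was not used here, so whether such spots were dim was not tested.

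The 2 inhibitors of apoptosis were not called. Birc3, which encodes cIAP2, a ubiquitin ligase of TNF receptor complexes and a target of NF-kB, had a mean above 0 in all 8 responses, from 0.13 to 0.56. It was above 0 on all 6 arrays of primary cells at 1 h (0.19 to 0.60) and on all 7 of ras cells at 6 h (0.08 to 1.05). In primary cells at 48 h it read 0.60, 0.82 and 0.27, and the mean of 0.56 (SE 0.20) had an adjusted p of 0.0634. Birc2, the related cIAP1 gene, lay between -0.16 and 0.17.

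The 3 death-associated kinases and the 4 programmed cell death genes were not called in any response. Dapk1, a calmodulin-regulated death kinase, lay between -0.46 and 0.25, with all 3 arrays of primary cells at 48 h below 0 (-0.76, -0.37 and -0.24). Dapk2, a related kinase, reached 0.49 (SE 0.21, adjusted p = 0.181) in ras cells at 48 h, from arrays at 0.43, -0.38, 1.13 and 0.79. Dapk3 lay between -0.30 and 0.21. Pdcd6ip encodes ALIX, which works in membrane budding and repair, and its means lay between -0.17 and 0.24. Pdcd10, the cerebral cavernous malformation gene CCM3, had a mean at or above 0 in all 8 responses, up to 0.49 (SE 0.20, adjusted p = 0.14) in primary cells at 48 h. Pdcd6 and Pdcd7 lay between -0.27 and 0.18 and between -0.68 and 0.47.

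Primary and ras cells were compared at each time to ask whether the oncogene changes the response. In limma 0 members were called at 1, 6, 24 and 48 h, where 0, 0, 0.0449 and 0.202% of all features were called; 2, 3, 1 and 5 members had an unadjusted p under 0.05. At 48 h the difference, ras minus primary, was -0.29 for Mdm2 (95% interval -0.91 to 0.33), 0.05 for Gadd45a (-0.94 to 1.05) and 0.43 for Trp53inp1 (-0.24 to 1.10). These intervals hold 0 and also hold differences as large as some of the responses. The difference was -0.68 for Ccng1 (-1.23 to -0.14, adjusted p = 0.473) and -1.02 for Tnfrsf23 (-1.62 to -0.41, adjusted p = 0.176), both below 0 in the gene's own interval but not called over all features. That Ccng1 and Tnfrsf23 were called in primary cells alone is thus not shown to differ between the cell types. Bak1 differed by 2.76 (1.25 to 4.27, adjusted p = 0.133), with the primary array at -7.04 in it. Without ras replicate 3, primary replicate 2 or primary replicate 5 at 48 h, 1 member was called.

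**Figure D4:**
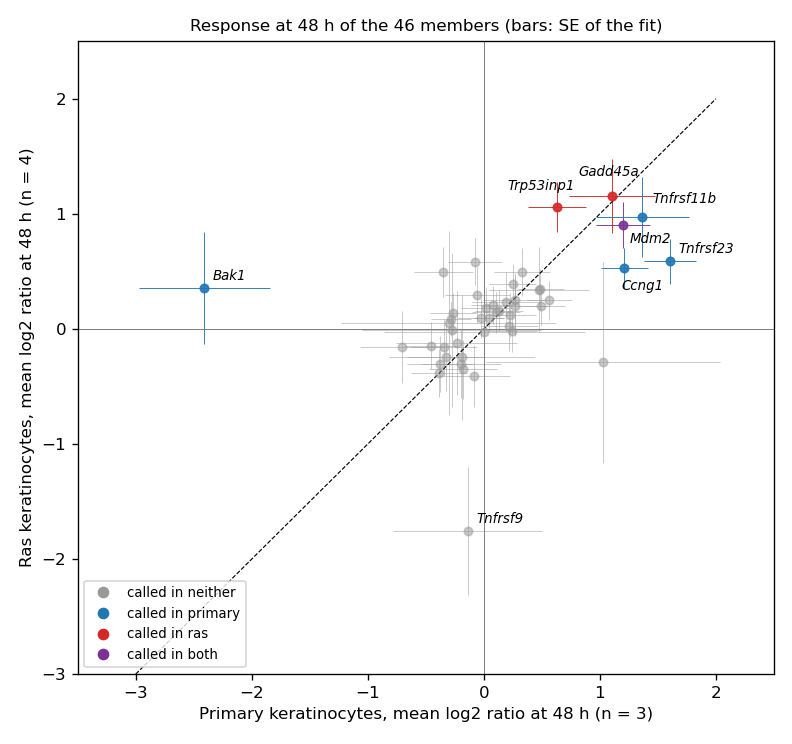
Mean log2 ratio at 48 h in primary cells (horizontal, n = 3) against ras cells (vertical, n = 4) for the 46 members; bars are the SE of the fit, colours show in which cell type a member was called and the dashed line marks equal responses. Mdm2 was called in both; Ccng1 (1.21 and 0.53) and Tnfrsf23 (1.60 and 0.59) lie below the line, and Bak1 and Tnfrsf9 lie far off it through 1 array each.

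The change of the response between 6 h and 48 h was tested in each cell type. In primary cells 4 members were higher and 1 lower at 48 h, 10.9% of the members against 2.74% of all features (1.85% higher, 0.887% lower). Tnfrsf23 differed by 1.52 (SE 0.27, adjusted p = 0.000427) and stayed called without any 1 array. Ccng1 differed by 1.21 (SE 0.24, adjusted p = 0.00215), and by 0.98 without primary replicate 2 at 48 h (adjusted p = 0.062). Tnfrsf1a differed by 0.91 (SE 0.24, adjusted p = 0.0291), and its arrays at 6 h, all below 0, did not overlap those at 48 h, all above 0. Mdm2 differed by 0.96 (SE 0.28, adjusted p = 0.0479), with its 6 h arrays spread from -0.60 to 0.99. The Tnfrsf1a call was lost without replicate 1 or 3 at 6 h or replicate 1 or 2 at 48 h (0.80 to 0.87, adjusted p up to 0.159). The Mdm2 call was lost without replicate 2, 3, 4, 5 or 6 at 6 h or replicate 1 or 2 at 48 h (0.82 to 0.96, adjusted p up to 0.261), and with number blocks as a random term (adjusted p = 0.0631). Bak1 differed by -2.49 (SE 0.68, adjusted p = 0.0317), and by -0.18 without replicate 1 at 48 h (adjusted p = 0.917); it also lost its call without replicate 1 (adjusted p = 0.0535) or 3 (adjusted p = 0.051) at 6 h. Within the arrays of high experiment number, 2 at 6 h and 3 at 48 h, 0 members were called, with Tnfrsf23 at 1.47, Ccng1 at 0.93, Tnfrsf1a at 0.82 and Mdm2 at 0.57. In ras cells 0 members were called in limma (4 at an unadjusted p under 0.05; background 0.0337%). The 48 h and 6 h responses may share untreated RNA.

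The Smad3 arrays asked whether the 48 h response needs Smad3, the receptor-activated transcription factor of TGF-β signalling. In primary cells Mdm2 read 0.81 in Smad3 wild type and 0.43 in knockout cells, and in ras cells 0.78 and -0.14. Gadd45a went from 1.20 in wild type to 0.64 in knockout primary cells, and from 1.04 to 0.62 in ras cells. Ccng1 went from 0.98 to 0.51 in primary cells and from 0.61 to 0.47 in ras cells. Each of these 3 genes was above 0 in both wild type arrays and lower in the knockout array of each cell type. They are not alone in this: Trp53inp1, Bad, Casp6 and Gadd45b, for example, had the same pattern. Averaged over the cell types, 28 of the 46 members were lower in knockout than in wild type cells. The median difference was -0.054 over the members and 0.022 over all features. How many of all features share the pattern was not counted. The reversed ras knockout array, not used in the test, read 0.40 for Mdm2 as deposited. Trp53inp1 went from 0.47 to 0.38 in primary cells and from 0.39 to -0.94 in ras cells. Tnfrsf23 went from 0.68 to 0.37 in primary cells and was at 0.12 on both ras arrays. Tnfrsf11b, the osteoprotegerin gene, went from 1.46 to 1.02 and from -0.03 to -0.70. With 1 array per genotype and cell type, the test takes these lone arrays to vary like the other groups. The difference, knockout minus wild type averaged over the cell types, was -0.65 (SE 0.40, adjusted p = 0.98) for Mdm2, -0.72 (SE 0.43, adjusted p = 0.961) for Trp53inp1, -0.49 (SE 0.64) for Gadd45a and -0.30 (SE 0.35) for Ccng1, and none passed the test. In limma 0 members were called (4 at an unadjusted p under 0.05, all higher in knockout cells), against 1.74% of all features. Casp8 at 1.12 (SE 0.47, adjusted p = 0.506) and Dapk2 at 1.06 (SE 0.42, adjusted p = 0.403) had the largest differences. Dapk2 read 1.13 and 0.81 in knockout against -0.04 and -0.14 in wild type cells, while Casp8 differed in ras cells (1.52 against -0.66) and hardly in primary cells (-0.18 against -0.25).

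**Figure D5:**
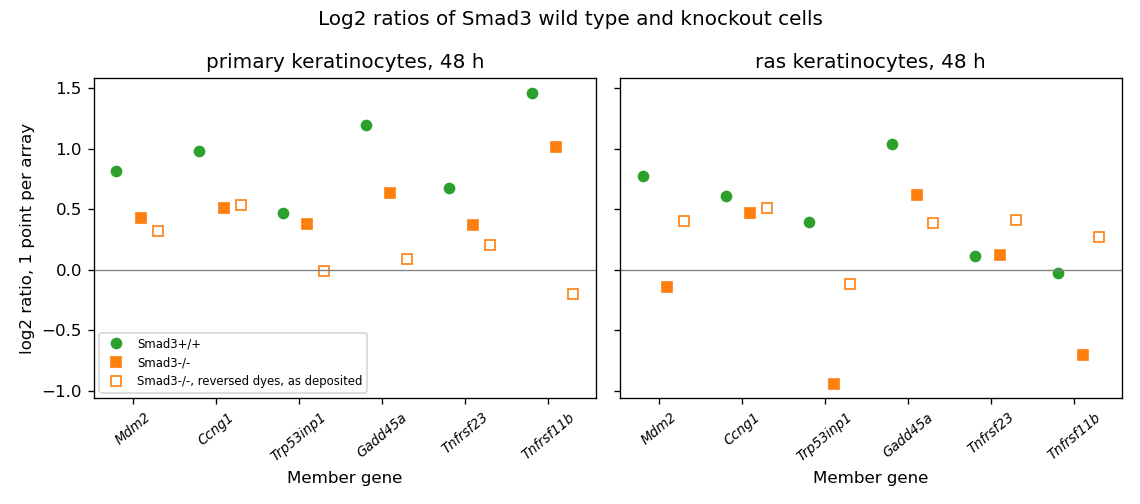
Log2 ratio of 6 members on single arrays of Smad3 wild type (circles) and knockout (filled squares) cells at 48 h, primary cells left and ras cells right; open squares are the reversed knockout arrays as deposited, not used in the test. Mdm2, Ccng1, Gadd45a and Trp53inp1 lie above 0 in both wild type arrays and lower on the filled squares (Mdm2 at 0.43 and -0.14).

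Other genes of these pathways were taken from a list of 85, of which 45 were measured. At 24 h in primary cells 1 fell (1.36% of all features called), and at 48 h 2 rose and 2 fell (8.6% of all features called). Birc5, which encodes survivin, a mitotic protein that also inhibits apoptosis, was the one that fell at 24 h, by 1.55 (SE 0.27, adjusted p = 0.000405) in primary cells, and it fell by 1.27 (SE 0.27, adjusted p = 0.00268) in ras cells at 24 h. Trp63, which encodes the p53 relative that maintains the basal epidermis, fell in primary cells at 48 h by 1.01 (SE 0.20, adjusted p = 0.000807), and Trp73, another gene of the p53 family, fell by 1.23 (SE 0.26, adjusted p = 0.00158). Also in primary cells at 48 h Cd40, a TNF receptor family member named outside the Tnfrsf symbols, rose by 0.88 (SE 0.22, adjusted p = 0.0082) and Tnfsf9, the ligand of 4-1BB, by 0.71 (SE 0.23, adjusted p = 0.0401). In ras cells 1 gene rose at 6 h, 3 rose and 2 fell at 24 h and 1 rose at 48 h, where 1.73, 10.5 and 3.5% of all features were called. Tnf itself rose by 1.27 (SE 0.22, adjusted p = 0.000726) in ras cells at 48 h, and Plk2, a p53-induced kinase, by 0.69 (SE 0.23, adjusted p = 0.0482) at 24 h. Endog, a mitochondrial nuclease released in apoptosis, fell by 0.70 (SE 0.20, adjusted p = 0.0215) at 24 h. Cdkn1a, the p53 target that encodes the cell cycle inhibitor p21, was not called in any response (0.16 to 0.51). In the Smad3 contrast, with 1 array per genotype and cell type, Cdkn1a was lower in knockout than in wild type cells by 2.07 on the log2 scale. Tnfsf9 was lower by 1.47, while Tgfb1, which encodes TGF-β1 itself, was higher by 2.53. The spread between arrays within these groups is not known.

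Some markers of other cells moved with the primary response at 48 h, where more members were called than in any other response. Of all features 8.6% were called there. Of 8 fibroblast markers 3 rose (Col1a2, Mfap5 and Twist1), and the mean log2 ratio of the list lay between 0.60 and 0.92 on the 3 primary arrays and between -0.48 and 0.43 on the 4 ras arrays. Of 16 immune markers 3 rose, led by Lyz2 at 2.59 (SE 0.25, adjusted p = 1.77e-09), and 1 fell. Only 6 of the 16 were above 0 in primary cells (median -0.088), and 5 in ras cells at 48 h (median -0.16). The list mean ran from 0.06 to 0.15 on the primary and from -0.29 to 0.12 on the ras arrays. Of 10 keratinocyte markers 3 fell (Krt10, Krt15 and Trp63), with list means between -0.87 and -0.27 on the primary and -0.32 and 0.00 on the ras arrays. None of the 6 endothelial and 3 melanocyte markers was called at 48 h in either cell type. No endothelial marker had a mean above 0 at 48 h in primary (median -0.427) or ras cells (median -0.223). Markers were also called in the other responses that hold the rises of Mdm2, Trp53inp1 and Gadd45a. Lyz2, the lysozyme gene of myeloid cells, rose by 0.91 (adjusted p = 0.00197) in primary cells at 24 h, and in ras cells by 0.54 (adjusted p = 0.0422) at 24 h and 0.96 (adjusted p = 0.00893) at 48 h. In ras cells Itgb4 rose and Itgam and Sox10 fell at 24 h, and Krt10 fell by 0.96 (adjusted p = 0.0398) at 48 h. No marker was called at 6 h. The part of these markers in the rises of the members was not tested.

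The reversed Balb/c arrays, left out above, show the members under the opposite dye orientation. As deposited, Mdm2 was below 0 on all 5 (-0.81 to -0.23), as were Gadd45a (-0.77 to -0.01) and Tnfrsf11b (-1.11 to -0.16). The same held for Casp12 (-1.10 to -0.02) and Tnfrsf17 (-0.57 to -0.01), which were called in no response. Tnfrsf17 also had a mean below 0 in every response of the arrays in use. Dapk3, Pmaip1 and Tnfrsf1a were above 0 on all 5. How many of all features keep 1 sign on these arrays was not counted. Ccng1 and Trp53inp1 were below 0 on 4 of 5 and Tnfrsf23 on 3 of 5. If the sign had not been turned before deposit, values below 0 are rises, and if it had been turned they are falls. The labels do not settle this. As deposited, these 5 arrays correlated at -0.0674 to 0.1166 with the mean of their group's other arrays. The reversed knockout arrays correlated with the other array of their group at 0.4793 in primary and 0.4028 in ras cells. With these arrays turned and a dye effect fitted, 4 response calls were lost: Trp53inp1 in primary cells at 24 h (0.69, adjusted p = 0.0542), Mdm2 in ras cells at 6 h (0.53, adjusted p = 0.0723) and Gadd45a in ras cells at 24 h (0.55, adjusted p = 0.31) and 48 h (0.85, adjusted p = 0.222). With them used as deposited, the response calls that held were Ccng1 in primary cells at 48 h and Trp53inp1 in ras cells at 24 h. Fitted on the spread of a group's own arrays alone, the response call that held was Mdm2 in ras cells at 6 h. Tnfrsf23 also held its call for 48 h minus 6 h in primary cells. With arrays scaled to 1 spread, Tnfrsf11b in primary cells at 48 h and Gadd45a in ras cells at 24 and 48 h were no longer called. On the 2 reversed knockout arrays as deposited, Mdm2 read 0.32 in primary and 0.40 in ras cells, where the arrays in use read 0.43 and -0.14. Gadd45a read 0.085 and 0.389 there (0.64 and 0.62 on the arrays in use), and Ccng1 0.53 and 0.51 (0.51 and 0.47).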

How the data were processed

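RNA of treated and untreated mouse keratinocytes was compared on 56 arrays with 2 colours. The authors deposited 1 log ratio for each of 9596 probes and array, taken here as log2. Base, background correction and normalization are not given in these sources, and precision is limited by how many arrays a group has. Per the labels, treated RNA carried Cy5 on 49 arrays, used here, and Cy3 on 7. Symbols came from the platform annotation and promoters from RefSeq. Arrays were centred on their median, probes of 1 symbol averaged, and all 12 groups fitted in 1 model in limma 3.58.1 (R 4.3.3; lmFit, eBayes; two-sided; Benjamini-Hochberg over 8905 features; called under 0.05), tested on simulated data. Beside called members, a fixed set of role genes is named, and other members by range. Wide members and examples outside that rule were chosen after their values were seen. The members, gene lists and named genes were chosen with earlier results of these data known. Of 19 same-numbered pairs of arrays 5 correlated over 0.1 in their deviations, so the numbers were not taken as pairs; arrays of like experiment number correlated at 0.14.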

Additional observations from a re-analysis of the deposited data

How the results depend on the processing

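Over the called genes, 207 results under alternatives kept their direction and their side of the threshold, 86 kept the direction but lost the call and 0 reversed. Counts of called members moved by over 1.5 times as follows. With arrays scaled to 1 spread they were 1 in primary cells at 6 h (from 0), 5 at 24 h (from 1), 1, 3 and 1 in ras cells at 1, 6 and 24 h (from 0, 1 and 2) and 2 for 48 h minus 6 h in primary cells (from 5). With array weights they were 8 in primary cells at 24 h, 1, 9 and 4 in ras cells at 1, 6 and 24 h, 1 for ras minus primary at 48 h and 1 for the Smad3 contrast. With the sign of the reversed arrays turned and a term for the dye they were 2 in primary cells at 24 h and 0 and 1 in ras cells at 6 and 24 h. With reversed arrays as deposited they were 0 and 1 in primary cells at 24 and 48 h, 0, 1 and 0 in ras cells at 6, 24 and 48 h, and 0 for 48 h minus 6 h in primary cells. With the spread of a group's own arrays they were 0 and 0 in primary cells at 24 and 48 h, 2, 0 and 0 in ras cells at 6, 24 and 48 h and 1 for 48 h minus 6 h in primary cells, fewer arrays entering each fit. Without the 2 widest arrays 2 were called in primary cells at 24 h. In the arrays of high experiment number alone, chosen after seeing the data, 3 were called in primary cells at 24 h, 0 in ras cells at 6 h and 0 for 48 h minus 6 h in primary cells; in those of low number 0 in primary and 1 in ras cells at 24 h. The causes were not tested.

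Leaving out each array in turn gave 3 to 5 called members in primary cells at 48 h (3 without replicate 1). It gave 0 to 2 in ras cells at 6 h (2 without replicate 6, 0 without replicate 7 or 8), 1 to 5 at 24 h (5 without replicate 3, 1 without replicate 6 or 7) and 1 to 6 at 48 h (1 without replicate 1 or 3, 5 without replicate 2, 6 without replicate 4). It gave 0 to 1 for ras minus primary at 48 h and 2 to 5 for 48 h minus 6 h in primary cells (3 without replicate 1 or 2 without replicate 3 at 6 h, 2 without replicate 1 or 2 at 48 h). Same-numbered arrays correlated between -0.228 and 0.381 over 19 pairs (median 0.042, 5 over 0.1), so the numbers were not taken as pairs. Low correlations cannot exclude shared cultures or RNA. Arrays within a group also agreed weakly, at -0.148 to 0.432 with the mean of the others. With the number as a replicate block 4 members were called in primary cells at 24 h and 5 in ras cells at 48 h. The Smad3 arrays could not be left out in turn, since each is the only one of its group.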
